A study of Mus musculus with 12 samples.

Results

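Nucleoporins are the proteins that build the nuclear pore complex, and 30 mouse nucleoporin genes were followed on 73 probes, out of 27306 gene symbols and 56605 probes on the array. All probes carrying one of the 30 symbols were taken. The group was chosen by pore membership and, among the results of these arrays, by the silencing difference of one gene, because the signal of one member, Nup93, fell when Bach1 was silenced, so the values of Nup93 are given as a description without a test and Nup93 is left out of every count of called probes. RNA came from C2C12, a myoblast line of C3H mouse muscle that proliferates in serum-rich medium and forms myotubes when serum is reduced. Cells received a negative control siRNA (siControl) or 1 siRNA against Bach1 (siBach1), both delivered with the same lipid reagent. They were collected at day 0 or at day 2 of differentiation in horse serum medium, with 3 arrays for each of the 4 conditions. With 1 siRNA, an effect of losing Bach1 and an effect of that siRNA on other transcripts cannot be told apart. The labels number the replicates but do not say that they were separate cultures, so p-values measure the spread between these arrays.

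The nuclear pore complex spans both membranes of the nuclear envelope and is the gate for proteins and RNA between nucleus and cytoplasm. An outer ring of Y-shaped subcomplexes and an inner ring form its scaffold, membrane proteins anchor the scaffold, and subunits rich in phenylalanine and glycine repeats fill the central channel. Filaments on the cytoplasmic side and a basket on the nuclear side serve transport and mRNA export. The scaffold of postmitotic cells is very stable, and dividing cells build new pores in interphase and after mitosis. Nup210, a membrane subunit, is known as a nucleoporin that appears when myoblasts differentiate.

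Signal is given throughout as log2 of the scanner's processed signal minus the array's 75th percentile, so that 1 unit is a factor of 2, and levels of different probes are not compared. Bach1, a transcriptional repressor, read 1.73, 1.55 and 1.78 on the siControl arrays and 0.18, −0.22 and −0.22 on the siBach1 arrays at day 0. At day 2 the Bach1 values were 2.56, 2.55 and 2.58 against 0.57, 0.56 and 0.65. The siBach1 arrays thus lay below the siControl arrays on both days, and the log2 difference was −1.77 (SE 0.11) at day 0 and −1.97 (SE 0.11) at day 2. Myod1, which marks the myogenic lineage, was well above background on all arrays, and Myf5 on 2 arrays of each condition. Arrays of a condition correlated at 0.985 to 0.995 over the 29664 probes that passed the filter given below. The share of all probes well above background was 47.6% to 58.9% per array. In RNA from a whole culture, fewer cells of a type and less RNA per cell cannot be told apart.

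Of the 73 nucleoporin probes, 60 passed the filter, which asks for a signal well above background on the 3 arrays of some condition, and were tested, as were 29664 of all 56605 probes. These covered 29 of the 30 genes, and on 57 of them every one of the 12 arrays gave such a signal. Nup210l, a relative of Nup210, was the gene without a tested probe, and it was well above background on 1 array at most. Among the 13 untested probes, 7 were at background on every array.

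Nup93 is a scaffold subunit of the inner ring. Its tested probe, A_55_P1955612, read 4.68, 4.71 and 4.72 on the siControl arrays at day 0 and 4.1, 3.82 and 4.09 at day 2. The siBach1 arrays read 2.72, 2.47 and 1.93 at day 0 and 2.73, 2.72 and 2.68 at day 2. All 6 siBach1 arrays lay below all 6 siControl arrays. The difference between siBach1 and siControl was −2.33 (SE 0.17) at day 0, or 5.03-fold lower, and −1.29 (SE 0.17) at day 2, or 2.45-fold lower. From day 0 to day 2 the siControl values dropped by 0.70 on the log2 scale without overlap, whereas the siBach1 values of the 2 days overlapped, with a mean difference of 0.34. One slide carried replicates 1 and 2 of each condition, and a second slide carried replicate 3. Within the first slide the silencing difference of Nup93 was −2.10 at day 0 and −1.24 at day 2, and within the second it was −2.79 and −1.40. The other probes of Nup93 were near background, A_55_P2741410 well above it on 1 array of each condition and A_55_P2130365 on none.

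The promoter of Nup93 is shown as the regulatory sequence of the gene that fell with silencing. It is the RefSeq sequence of the 250 bases before the upstream of its listed starts, at chr8:94214314-94214563 on the plus strand of GRCm38.p6, with GC boxes (GGGCGG) and CCAAT boxes (CCAAT) on either strand in capitals.

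Nup93: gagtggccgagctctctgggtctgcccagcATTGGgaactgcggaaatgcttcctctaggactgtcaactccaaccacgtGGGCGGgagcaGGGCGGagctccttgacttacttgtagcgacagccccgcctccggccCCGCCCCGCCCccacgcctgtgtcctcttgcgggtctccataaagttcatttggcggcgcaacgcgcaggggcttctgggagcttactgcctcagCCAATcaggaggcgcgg

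This window held 4 GC boxes, of which 2 share a base, and 2 CCAAT boxes. RefSeq had such windows for 25 of the 30 genes, and none was at hand for Nup35, Nup43, Nup85, Seh1l and Nup210l. A GC box was in the windows of 15 of the 25 genes, and 35.4% of all 27025 genes with windows of the same length had one. A CCAAT box was found for 10 of the members and for 37.5% of all genes. The motif GCGCATGCG, part of the site of the factor NRF1, was in the windows of Nup62, Nup107 and Nup50 and in those of 1.64% of all genes. The motif CAGCTG, an E box used by muscle regulators, was in the window of Ndc1 and in those of 14.7% of all genes. The motif TGANTCAGC, the core of the site shared by BACH and NRF2 proteins, was found for none of the 25 and for 1.17% of all genes, which says only that these letters are not there. Motifs were searched on both strands, and the matches describe the sequence and were not set against expression.

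Between day 0 and day 2 in siControl, nucleoporin signals fell in every place of the pore, and 1 gene rose. Of 59 tested probes without Nup93, 49 were called lower (83.1%), 1 was called higher and 9 did not pass the test. Over all tested probes, 28.7% were called lower and 24.6% higher at an adjusted p under 0.05 (limma, Benjamini-Hochberg). The median change of the nucleoporin probes was −0.81, which is 0.57 of the day 0 signal, and that of all tested probes was 0.00. Of the 28 genes, 27 had a probe called lower, and the remaining gene was Nup210. In 20 of the 28 genes every tested probe was called lower, and no gene had probes called in opposite directions. A fall of at least 2-fold was called for 25 probes, and 9.46% of all tested probes fell that far. Among the 56 probes detected in this sense on every array, 47 were called lower and 1 higher. In the fit of all 24801 probes with such a signal on every array, 32.3% were called lower and 24.3% higher.

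The same comparison in siBach1, which shares no array with that in siControl, gave 46 probes called lower (78.0%), 1 called higher and 12 that did not pass. Over all tested probes, 32.3% were called lower and 23.8% higher. The median change of the nucleoporin probes was −0.75, where that of all probes was −0.07. A fall of at least 2-fold was called for 18 probes, against 9.59% of all tested probes. A fall was called in both siRNAs for 44 probes and a rise in both for 1. Changes of the 59 probes in the 2 siRNAs correlated at 0.866 across probes, and at 0.820 without Nup210. These probes share the arrays of each comparison and are not independent. Within the first slide 54 of 59 probes were below 0 in siControl and 56 in siBach1, and within the second slide the numbers were 56 and 57.

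**Figure D1:**
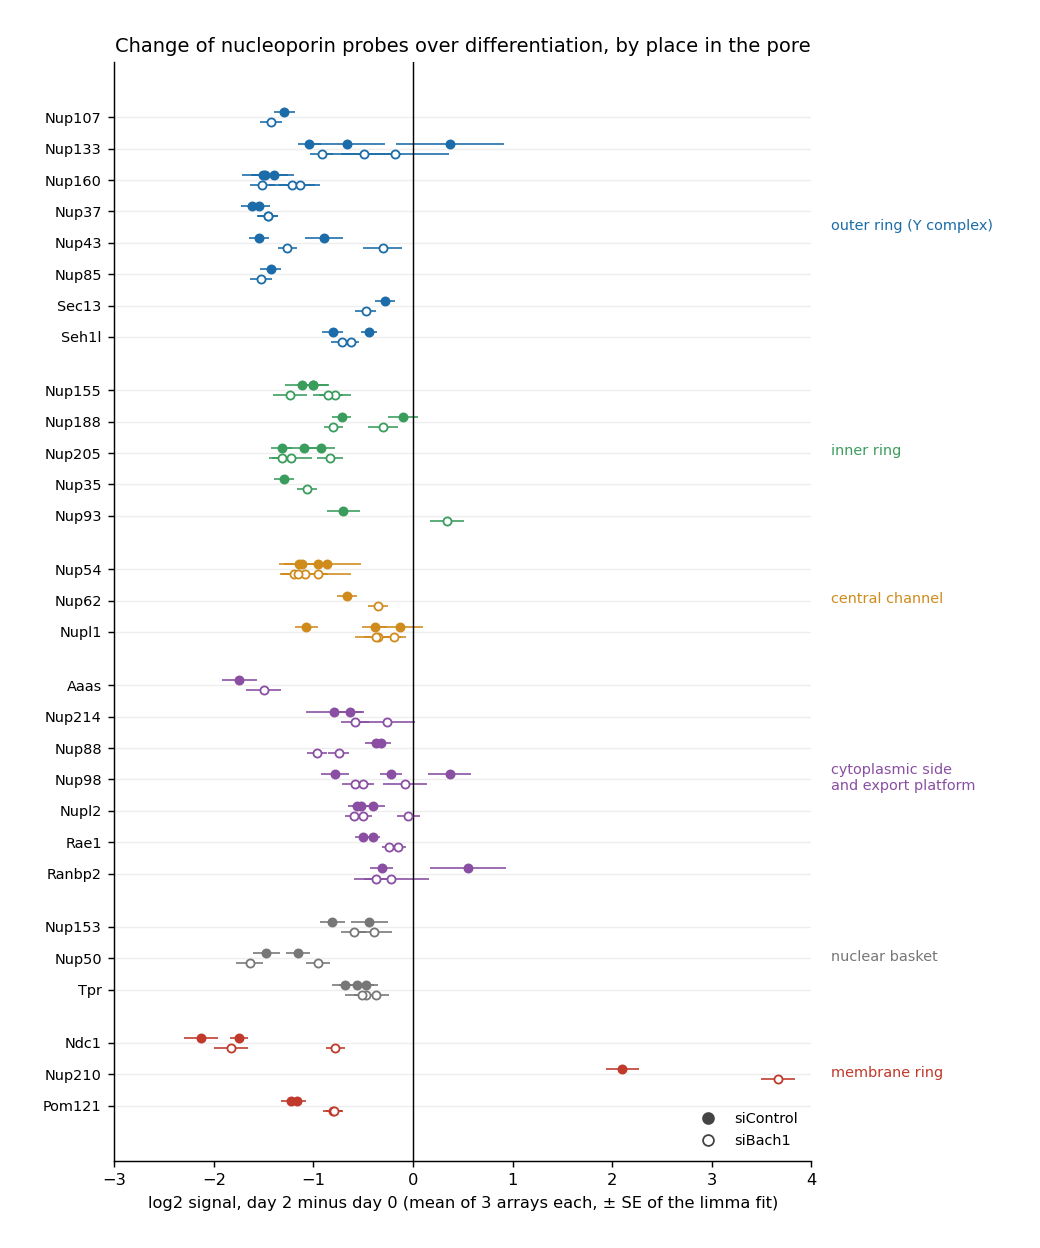
Change of each tested nucleoporin probe from day 0 to day 2 (x axis, log2 signal, with the SE of the limma fit), by gene and by place in the pore, in siControl (filled circles) and in siBach1 (open circles), with 3 arrays for each condition. Most probes lie left of 0 in both siRNAs, Nup210 lies at 2.10 and 3.67, and Nup93 lies at −0.70 in siControl and 0.34 in siBach1.

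The outer ring, the Y complex that coats the pore on both faces, had 13 of 15 probes called lower in siControl, with a median of −1.29. Nup37, a small propeller subunit of the Y complex, read 2.99, 3.22 and 3.18 at day 0 and 1.54, 1.36 and 1.62 at day 2 on probe A_51_P351009. All day 2 arrays lay more than 1 unit below all day 0 arrays, a change of −1.62 (SE 0.11, adjusted p = 9.6e-07, limma), or 3.08-fold lower. Nup43, another propeller subunit, read 3.75, 3.81 and 3.59 and then 2.22, 2.02 and 2.28 on probe A_66_P128702. Its groups did not overlap either, at −1.55 (SE 0.10, adjusted p = 6.3e-07, limma), and 61.9% of all tested probes had groups that did not overlap in this comparison. The scaffold subunits Nup107, Nup85 and Nup160 fell by 1.29, by 1.43 and by 1.40 to 1.50, the last over 3 probes. Sec13, which also belongs to the coat of secretory vesicles, and Seh1l, which also serves amino acid sensing, fell least, with changes of −0.28 for Sec13 and of −0.44 and −0.81 for the 2 probes of Seh1l. Of the 3 probes of Nup133, 1 fell by 1.04 and the other 2, at −0.66 and 0.37, did not pass. These 2 dim probes had SEs of 0.38 and 0.54.

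The inner ring had 8 of 9 probes called lower without Nup93, with a median of −1.0. Nup205, a large scaffold subunit that partners Nup93, fell by 0.92 to 1.32 over 3 probes, and its relative Nup188 fell by 0.72 on 1 probe and stood at −0.10 on the other. Nup155, which links the ring to the membrane, fell by 1.0 to 1.11 over 3 probes, and Nup35 fell by 1.29. In siBach1 the same ring had 8 of 9 probes called lower, with a median of −0.85. None of these 9 probes was called in the silencing comparisons, where their differences lay between −0.29 and 0.43 at day 0 and between −0.38 and 0.24 at day 2. With the replicate number as a block, Nup155 A_55_P2172334 and Nup188 A_55_P2017199 were called at day 0. Nup205 probe A_55_P2113698 stood at 0.06 (95% interval −0.16 to 0.29) at day 0 and 0.07 (−0.16 to 0.30) at day 2, beside the −2.33 and −1.29 of Nup93.

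The central channel had 6 of 8 probes called lower, with a median of −0.91. Nup54 fell by 0.96 to 1.15 on 3 probes and stood at −0.86 (adjusted p = 0.051, limma) on the dimmest. Nup62, which gives the channel complex its name, fell by 0.66 in siControl and by 0.35 in siBach1. The 3 probes of Nupl1, the subunit also called Nup58, stood at −1.07, −0.39 and −0.13, and the last did not pass.

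The cytoplasmic side and export platform had 12 of 15 probes called lower, and their median was −0.40. Aaas, a membrane-bound propeller protein whose loss causes triple A syndrome, read 2.73, 2.80 and 3.1 at day 0 and 1.11, 0.78 and 1.50 at day 2. These arrays did not overlap, and the change was −1.74 (SE 0.18, adjusted p = 1.5e-05, limma), or 3.35-fold lower. It was the only fall of at least 2-fold among these 15 probes. The filament subunits Nup214 and Nup88 fell by 0.63 and 0.79 and by 0.33 and 0.38 on their 2 probes each. Ranbp2, the large filament protein that docks the Ran GTPase activating protein, fell by 0.32 on 1 probe and stood at 0.55 (SE 0.38) on a dim one. Nup98, found on both faces and released as a mobile factor, fell by 0.79 on 1 of 3 probes, and the others stood at −0.22 and 0.37. Nupl2 fell by 0.40 to 0.57 over 3 probes and Rae1, an mRNA export factor that binds Nup98, by 0.40 and 0.50.

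The nuclear basket had 6 of 7 probes called lower, with a median of −0.68. Nup50, a mobile subunit that helps to unload import cargo, fell by 1.47 and 1.15. Tpr, the rod protein of the basket, fell by 0.47 to 0.68 over 3 probes. Nup153, which anchors the basket, fell by 0.81 on 1 probe and stood at −0.44 (adjusted p = 0.067, limma) on the other.

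The membrane ring held both the largest falls and the rise, with 4 of 5 probes called lower and 1 higher. Ndc1, which anchors the scaffold in the membrane, read 2.29, 2.48 and 2.69 at day 0 and 0.38, 0.09 and 0.62 at day 2 on probe A_51_P407606. The highest day 2 array lay more than 1 unit below the lowest day 0 array, at −2.13 (SE 0.17, adjusted p = 2.8e-06, limma), or 4.37-fold lower. Its other probe, A_52_P551154, fell by 1.75, and the 2 probes of Pom121, a membrane protein needed early in pore assembly, fell by 1.22 and 1.16.

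Nup210 stood alone in rising. Its probe read −3.78, −3.90 and −3.30 on siControl arrays at day 0 and −1.43, −1.63 and −1.62 at day 2. On siBach1 arrays it read −3.95, −3.70 and −3.55 at day 0 and −0.22, 0.16 and −0.13 at day 2. The day 0 arrays of both siRNAs overlapped, all day 2 arrays were higher, and the siBach1 arrays were the highest at day 2. The rise was 2.10 (SE 0.17, adjusted p = 3.3e-06, limma) in siControl, or 4.30-fold, and 3.67 (SE 0.17, adjusted p = 1.1e-07) in siBach1, or 12.7-fold. The probe was well above background on all 12 arrays. The lowest signal so counted was between −5.17 and −3.86 on each array, so the day 0 values lay near it. Over the alternatives run, the rise of Nup210 was 1.25 to 2.31 in siControl and 2.32 to 3.80 in siBach1, so its size depended on the processing. Its promoter is shown because no other member rose, at chr6:91116827-91117076 on the minus strand of GRCm38.p6 (RefSeq, 250 bases before the start), with GC boxes and the E2F motif TTTCCCGC in capitals.

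Nup210: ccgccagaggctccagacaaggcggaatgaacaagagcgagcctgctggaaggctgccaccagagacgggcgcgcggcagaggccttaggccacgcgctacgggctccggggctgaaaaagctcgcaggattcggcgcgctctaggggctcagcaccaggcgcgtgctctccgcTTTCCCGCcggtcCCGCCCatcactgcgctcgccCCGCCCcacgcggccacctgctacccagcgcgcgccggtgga

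It held 2 GC boxes and 1 copy of TTTCCCGC. That E2F motif was in no other of the 25 members' windows and in those of 1.03% of all genes, and the form TTTGGCGC was in none of the members' and in those of 0.485% of all genes.

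Signal level went along with how many probes passed. All 30 of the brighter probes, split at the median of the mean signal over the 12 arrays, were called lower in siControl, with a median of −1.02. Of the 29 dimmer probes 19 were called lower, with a median of −0.72. The dimmer probes included the rise of Nup210. Over all tested probes 28.7% were called lower in siControl, and that share was not split by signal level. The split is therefore no result about nucleoporins, and the part of signal level in these changes was not tested.

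At day 0 silencing lowered a few members beside Nup93. The silencing comparisons of the 2 days share no array with each other, but each shares arrays with both differentiation comparisons. Of the 59 other probes, 8 were called lower and 2 higher, together 16.9%, where over all tested probes 8.32% were called lower, 8.8% higher and 17.1% in either direction. Falls of at least 2-fold were called for 2 probes, 1 each of Ndc1 and Nupl1, against 1.98% of all tested probes. Neither of these 2 probes had a match in the RefSeq reference, so their gene symbols are the array's own. With the replicate number as a block 13 of the 59 probes and 27.5% of all probes were called. A share of calls so near to that of all probes is no result about nucleoporins as a group. The median difference was −0.05, and that of all probes was 0.09. The probes called belonged to the central channel (Nup62 and 1 probe of Nupl1), the export platform (Rae1, Nup88 and Nupl2), the membrane ring (Ndc1 and Pom121) and the outer ring (Nup43).

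Nup62 read 5.77, 5.70 and 5.82 on the siControl arrays and 4.99, 4.82 and 4.60 on the siBach1 arrays at day 0. At day 2 it read 5.16, 5.08 and 5.06 against 4.52, 4.43 and 4.40. The siBach1 arrays were lower on both days without overlap. Groups did not overlap for 37.3% of all tested probes at day 0 and for 32.8% at day 2. The difference was −0.96 (SE 0.10, adjusted p = 0.00017, limma) at day 0, or 1.94-fold lower, and −0.65 (SE 0.10, adjusted p = 0.0034) at day 2, or 1.56-fold lower. The difference between the 2 days, 0.31, did not pass (adjusted p = 0.23). The promoter of Nup62 is shown because the gene was lower on both days, at chr7:44815838-44816087 on the plus strand of GRCm38.p6 (RefSeq, 250 bases before the start), with the GC box, the CCAAT boxes and the overlapping NRF1 motifs in capitals.

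Nup62: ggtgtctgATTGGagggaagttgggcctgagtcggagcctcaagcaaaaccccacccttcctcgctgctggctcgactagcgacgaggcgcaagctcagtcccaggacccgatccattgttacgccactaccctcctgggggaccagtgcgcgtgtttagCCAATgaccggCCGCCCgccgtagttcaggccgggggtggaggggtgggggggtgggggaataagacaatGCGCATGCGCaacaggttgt

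Rae1 was lower on both of its probes and on both days. Probe A_52_P284778 read 3.31, 3.31 and 3.36 on siControl and 2.56, 2.70 and 2.56 on siBach1 arrays at day 0, and 2.85, 2.92 and 3.0 against 2.37, 2.35 and 2.37 at day 2. No siBach1 array reached a siControl array of either day. The difference was −0.72 (SE 0.07, adjusted p = 0.00014, limma) at day 0 and −0.56 (SE 0.07, adjusted p = 0.0015) at day 2, or 1.65-fold and 1.47-fold lower. The second probe of Rae1, A_55_P2923727, gave −0.78 (adjusted p = 0.00019) and −0.43 (adjusted p = 0.0094). Its siControl arrays read 0.24, 0.06 and 0.22 at day 0 and −0.36, −0.38 and −0.25 at day 2, and its siBach1 arrays read −0.58, −0.61 and −0.65 and then −0.79, −0.84 and −0.66. The probes of Rae1 thus pointed the same way on each day. Within each slide Nup62 and both Rae1 probes kept their direction on both days, with differences from −1.22 to −0.40.

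**Figure D2:**
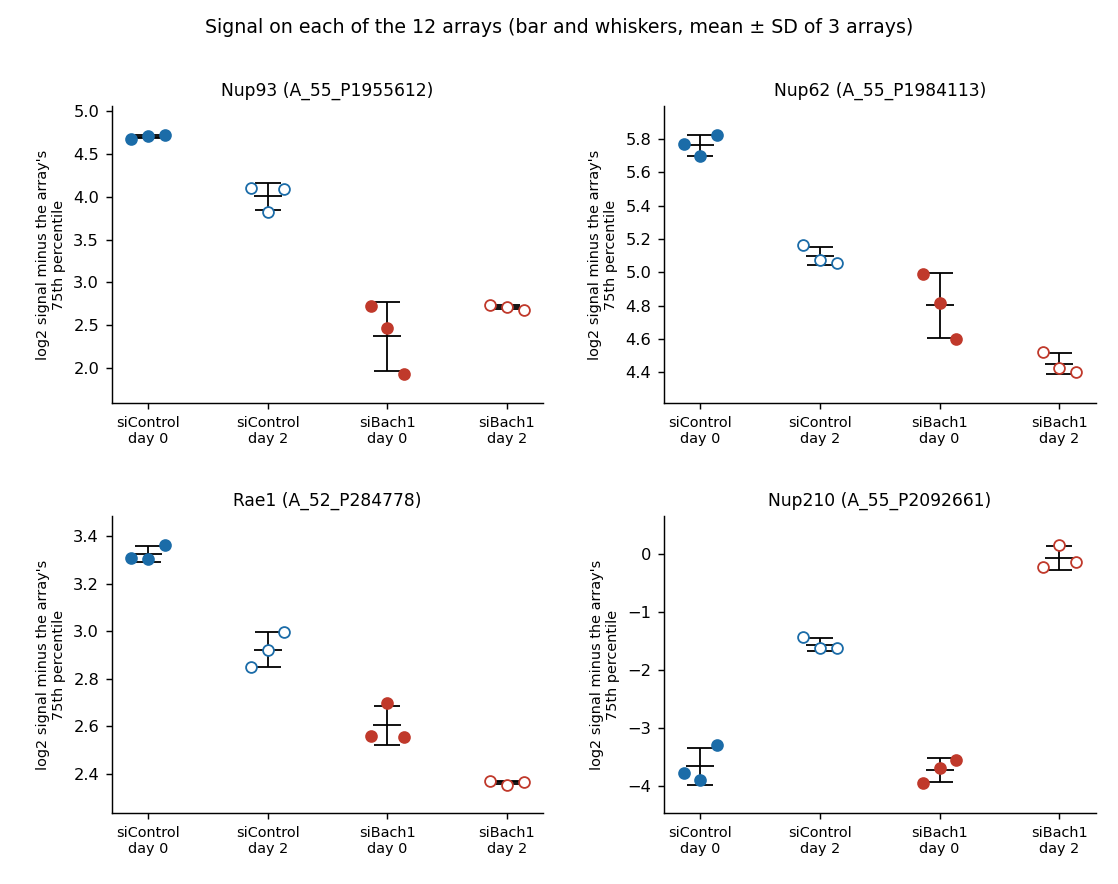
Signal of the brightest probe of Nup93, Nup62, Rae1 and Nup210 on each of the 12 arrays (y axis, log2 signal minus the array's 75th percentile), in siControl (blue) and siBach1 (red) at day 0 (filled) and day 2 (open), with the mean and SD of 3 arrays in black. For Nup93, Nup62 and Rae1 the siBach1 arrays lie below the siControl arrays on both days, and for Nup210 they lie above them at day 2.

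Pom121 was lower at day 0 on both probes. They read 1.95, 1.98 and 2.02 against 1.55, 1.29 and 1.53 on A_52_P407751 and 4.67, 4.73 and 4.60 against 4.14, 4.05 and 4.04 on A_55_P1959056. The arrays of the siRNAs did not overlap, at −0.53 (SE 0.10, adjusted p = 0.0049, limma) and −0.59 (SE 0.08, adjusted p = 0.0011). At day 2 the same probes stood at −0.11 (adjusted p = 0.54) and −0.22 (adjusted p = 0.12). Nup43 probe A_66_P128702, with the siControl values given above, read 3.25, 3.27 and 3.35 on siBach1 arrays at day 0 and 1.95, 2.00 and 2.13 at day 2. It was lower at day 0, at −0.43 (SE 0.10, adjusted p = 0.013), and the groups did not overlap, but without siControl day 0 replicate 2 the adjusted p was 0.058. At day 2 it stood at −0.14 (adjusted p = 0.38). The second, dim probe of Nup43, A_55_P2601838, stood at −0.23 (adjusted p = 0.47) at day 0 and 0.36 (adjusted p = 0.26) at day 2.

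The 2 rises at day 0 were small. Nup88 probe A_66_P133697 read 2.09, 2.16 and 2.15 on siControl and 2.32, 2.65 and 2.59 on siBach1 arrays, at 0.39 (SE 0.10, adjusted p = 0.025, limma). Nupl2 probe A_52_P475742 read −0.91, −0.95 and −0.79 against −0.56, −0.60 and −0.60, at 0.30 (SE 0.09, adjusted p = 0.047). Both sets of arrays were apart, but leaving out any single array of the comparison ended the call of Nupl2 (adjusted p from 0.052 to 0.15), and leaving out any of 5 of the 6 ended that of Nup88 (up to 0.085). The call of Nup88 stayed only without siBach1 day 0 replicate 1. The other probe of Nup88 stood at 0.26 (adjusted p = 0.11), and the others of Nupl2 at 0.23 and −0.19.

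Probes of one gene gave different values for silencing in Ndc1 and in Nupl1. Ndc1 probe A_52_P551154 read 3.92, 3.99 and 3.88 on siControl and 2.76, 2.60 and 2.55 on siBach1 arrays at day 0, and 2.29, 2.01 and 2.24 against 1.85, 1.79 and 1.92 at day 2. Its arrays were apart on both days, at −1.29 (SE 0.09, adjusted p = 2.4e-05, limma) at day 0, or 2.45-fold lower, and at −0.33 (adjusted p = 0.05) at day 2. On siBach1 arrays probe A_51_P407606 of the same gene read 2.24, 2.38 and 2.55 at day 0 and 0.32, 0.59 and 0.78 at day 2, which overlapped the siControl values given above. The differences there were −0.10 (95% interval −0.47 to 0.28) and 0.20 (−0.17 to 0.58). Both probes of Ndc1 fell over differentiation in both siRNAs.

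Nupl1 probe A_52_P594532 read 0.57, 0.77 and 0.66 on siControl and −0.26, −0.61 and −0.64 on siBach1 arrays at day 0. At day 2 the values were −0.51, −0.36 and −0.35 against −0.62, −0.79 and −0.66. The siBach1 arrays were lower at day 0, at −1.17 (SE 0.11, adjusted p = 0.00012, limma), and at day 2 the difference was −0.28 (adjusted p = 0.14). The other probes of Nupl1 stood at −0.13 (95% interval −0.64 to 0.38) and 0.04 (−0.24 to 0.31) at day 0. The probes that fell, Ndc1 A_52_P551154 and Nupl1 A_52_P594532, had no match in the RefSeq reference. Ndc1 A_51_P407606 and Nupl1 A_55_P2740177, the latter at 0.04, matched it under the same symbol. Nupl1 A_51_P520793, at −0.13 and not called, had no match either, so a missing match did not go along with a fall on every probe. Differences between probes of one gene were not tested, and the sequences of the probes were not used here, so that it is not known whether the probes read the same transcripts.

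**Figure D3:**
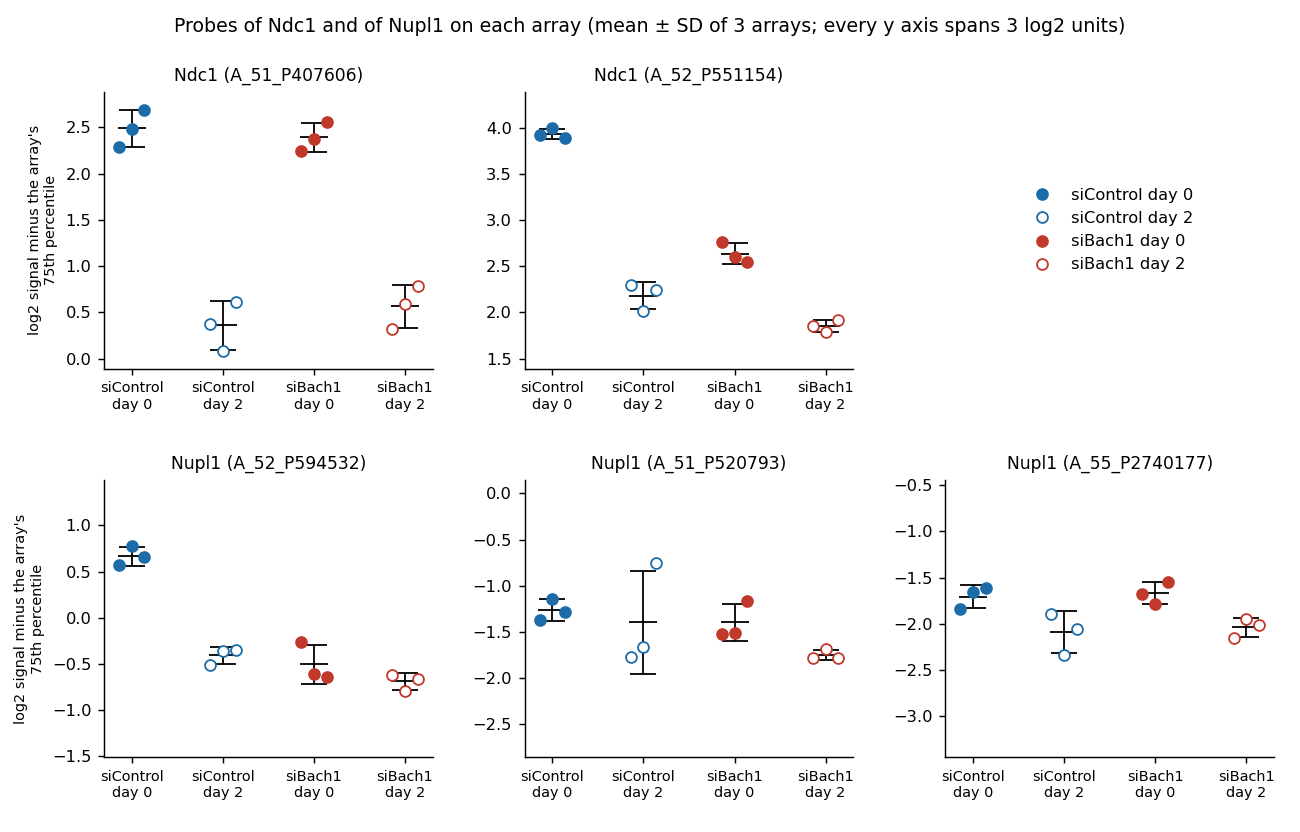
Signal of the 2 tested probes of Ndc1 and the 3 of Nupl1 on each array (y axis, log2 signal minus the array's 75th percentile, each axis spanning 3 units), in siControl (blue) and siBach1 (red) at day 0 (filled) and day 2 (open), with the mean and SD of 3 arrays. The siBach1 day 0 arrays are lower than siControl day 0 on A_52_P551154 of Ndc1 and A_52_P594532 of Nupl1, and overlap them on the other 3 probes.

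At day 2, 3 of the 59 probes were called lower by silencing and 1 higher, together 6.78%, where over all tested probes 6.26% were called lower and 5.75% higher. The median difference was −0.03, and that of all probes was −0.01. The falls were those of Nup62 and of both probes of Rae1. The rise was that of Nup210, at 1.50 (SE 0.17, adjusted p = 0.0007, limma), or 2.82-fold, with no overlap of the arrays listed above, and rises of at least 2-fold were called for 1.52% of all tested probes. With the replicate number as a block, 9 of 59 probes (15.3%) were called in place of 4, and 21.3% of all tested probes, so that the added calls are no result about nucleoporins. The 4 calls were among the 9, and the added ones were Ndc1 A_52_P551154, Nup214 A_52_P327084, Nup50 A_51_P411297, Nup85 A_51_P201532 and Nupl2 A_52_P475742. With the slide as a block 9 were called as well, and 21.8% of all tested probes. Without siControl day 2 replicate 2, 7 were called, and 10.3% of all tested probes.

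The silencing effect itself differed between the days for 4 of 59 probes (6.78%), 3 in the upward and 1 in the downward direction. Over all tested probes it did so for 2.39% upward, 2.2% downward and 4.59% in all, and after quantile normalization 737 probes were called upward and 401 downward in place of 708 and 653. With the replicate number as a block it did so for 5.16% of all probes upward, 7.86% downward and 13.0% in all, with the same 4 nucleoporin probes called, so the share of nucleoporins lay above that of all probes without the block and below it with the block. Nup210 showed a larger signal difference at day 2 than at day 0, by 1.56 (SE 0.24, adjusted p = 0.011, limma). Over the alternatives run, this value of Nup210 was 1.07 to 1.73. For Ndc1 A_52_P551154 and Nupl1 A_52_P594532 the day 0 deficit was smaller at day 2, by 0.97 (SE 0.13, adjusted p = 0.0083) and 0.89 (SE 0.16, adjusted p = 0.018). Nup88 A_66_P133697 changed from 0.39 at day 0 to −0.25 at day 2, where it read 1.85, 1.80 and 1.77 on siControl and 1.41, 1.67 and 1.59 on siBach1 arrays, a difference of −0.64 (SE 0.14, adjusted p = 0.037). The call of Nup88 was lost in 10 of the 12 fits that left out 1 array (adjusted p up to 0.089) and stayed only without siBach1 day 0 replicate 1 or siBach1 day 2 replicate 2. Without siBach1 day 2 replicate 1, 2 of the 4 calls were left, those of Nup210 and Ndc1, and 1.61% of all probes were called. Within the first slide alone none was called by limma, with 10 probes at an unadjusted p under 0.05. Of all tested probes 0.378% were called there. Of the 59 probes only Nup210 passed a limit of 2-fold for this difference upward, as did 0.981% of all tested probes. The same contrast in Nup93 was 1.04, as a description.

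**Figure D4:**
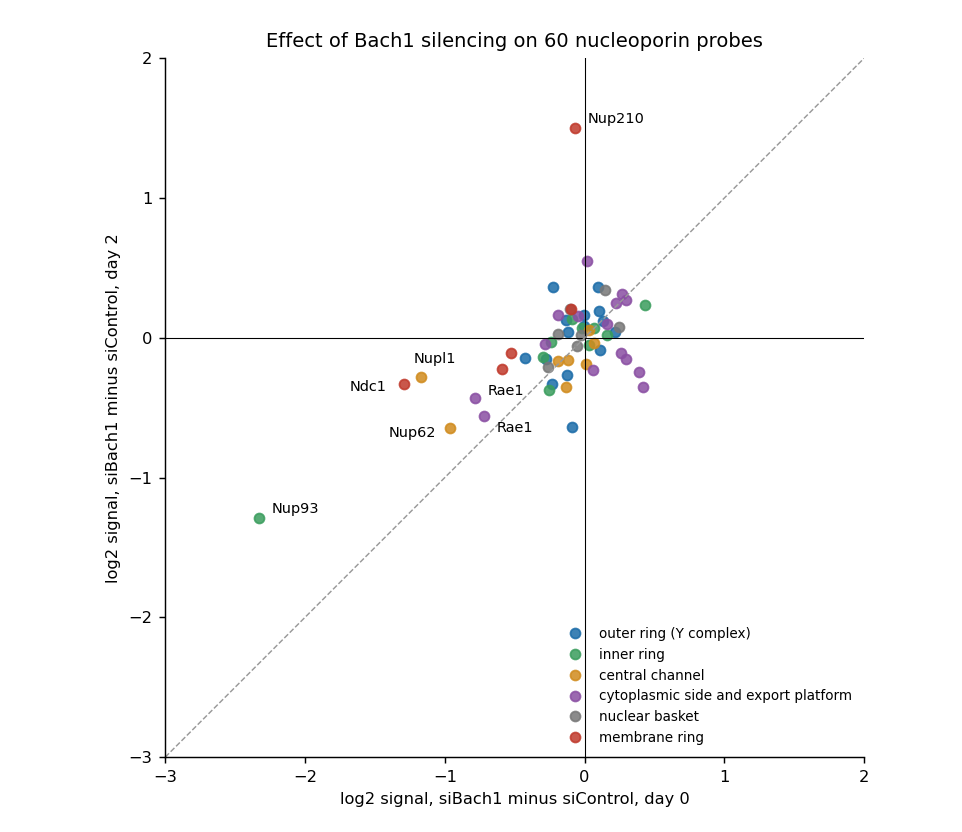
Silencing difference of each of the 60 tested nucleoporin probes at day 0 (x axis) and at day 2 (y axis), both as log2 signal of siBach1 minus siControl from 3 arrays each, coloured by place in the pore, with the line of equal values dashed. Most probes lie near 0 on both axes, Nup93 lies at −2.33 and −1.29, and Nup210 lies at −0.07 and 1.50.

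Genes that work with the pore changed over differentiation as well. Of 69 probes of 32 transport receptor and Ran cycle genes, 48 were called lower in siControl and 2 higher, with a median of −0.73. Both probes of Rcc1, the exchange factor that loads Ran with GTP on chromatin, were lower. Its probe A_55_P2059686 fell by 2.00 on the log2 scale (adjusted p = 4.4e-06, limma), and A_55_P2926626 was not well above background on any day 2 array and was at least 3.19-fold lower in siControl and at least 3.22-fold lower in siBach1. Here a dim array was set at the lowest signal among its probes well above background, or at the probe's own value where that was higher. The 2 rises were those of Xpo7 A_55_P2435613, at 0.60 (adjusted p = 0.048), and of Kpna1 A_51_P256682, at 0.30 (adjusted p = 0.023). Both genes had probes that differed, since Xpo7 A_51_P235594 fell by 0.70 and Kpna1 A_55_P2720495 and A_65_P16625 stood at 0.80 (adjusted p = 0.16) and −0.35 (adjusted p = 0.067). Xpo7 is an exportin and Kpna1 an importin. Of 29 probes of 15 pore assembly and mRNA export partners, 21 were called lower and none higher by limma, with a median of −0.59, and Senp1, a SUMO protease found at the pore, fell by 1.67 and 1.31. The highest values of this list, 0.23 for Tor1aip2 (adjusted p = 0.056) and 0.18 for Gle1 (adjusted p = 0.64), did not pass.

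Of 34 probes of 17 nuclear lamina and envelope genes, 16 were called lower and 9 higher, with a median of −0.18. Lmnb1, lamin B1, fell by 1.84 and Syne3 by 1.60. Tmem38a, a cation channel of the sarcoplasmic reticulum and nuclear envelope of muscle, rose by 3.79, and Ppapdc3, a muscle nuclear envelope protein, rose by 3.80. In siBach1 the transport list had 52 probes lower and 2 higher, the partners 19 and 2, and the lamina list 17 and 8.

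All 19 probes of the 10 cell cycle genes fell in siControl, with a median of −2.14 and a range from −2.92 for Tk1 and −2.75 for Ccna2 to −1.71 for Rrm2 and −1.53 for Top2a. They fell in siBach1 too, with a median of −2.17. At day 0, 5 of them were called lower by silencing, with a median of −0.43, and at day 2, 1 was, with a median of −0.36. Signals of all probes of this list, tested or not, were also summed before taking log2. The log2 of the sum was 8.89 to 9.01 on siControl arrays at day 0, 8.48 to 8.63 on siBach1 arrays at day 0, and 6.43 to 7.20 on the day 2 arrays. The nucleoporin changes went along with those of the cell cycle genes over differentiation, and their part in the nucleoporin values was not tested. All 8 probes of differentiating muscle genes rose in siControl, with a median of 4.78, Ckm, the muscle creatine kinase, by 6.75 and Actc1 by 3.67. At day 2 silencing lowered 5 of these 8, with a median of −0.57.

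**Figure D5:**
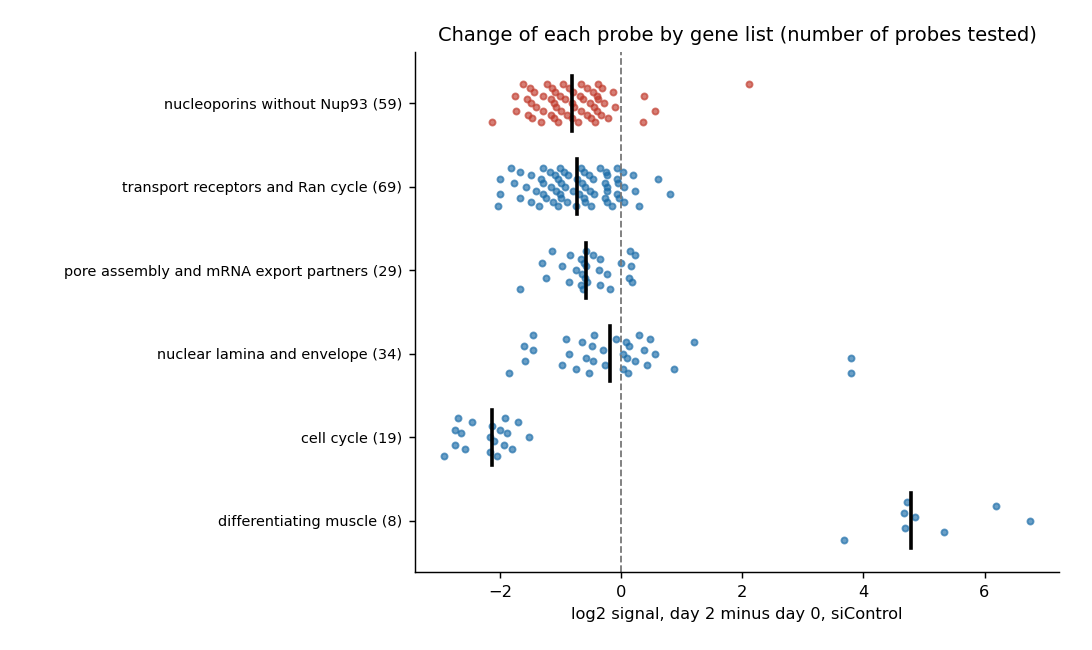
Change of each tested probe from day 0 to day 2 in siControl (x axis, log2 signal) for the nucleoporins without Nup93 and for 5 other gene lists, with the number of probes in brackets, the list's median as a black bar and the median of all tested probes as a dashed line. Nucleoporins have a median of −0.81, cell cycle genes of −2.14 and differentiating muscle genes of 4.78.

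Ahctf1, also called ELYS, binds chromatin and recruits the Y complex when pores form after mitosis. It is named because of its values. Its probe A_51_P118763 fell by 1.24 on the log2 scale in siControl (adjusted p = 0.00034, limma) and stood at −0.03 (adjusted p = 0.91) in siBach1. It was lower with silencing, at −1.91 (SE 0.20, adjusted p = 0.00015) at day 0 and −0.71 (adjusted p = 0.041) at day 2, and the difference between the days was 1.20 (SE 0.28, adjusted p = 0.038).

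Markers of other cell types were sparse. Of 7 adipocyte probes 2 were tested, of 8 osteoblast probes 3, of 6 endothelial probes 1, of 14 immune probes 5 and of 4 epithelial probes 2. The markers Adipoq, Cdh5, Kdr, Tek and Epcam were at background on all 12 arrays, as were 5 of the 7 probes of Ptprc, while 1 was well above background on all. Other members of these lists had tested probes, among them Fabp4, Plin1, Cd3e, Cd68, Krt14 and Cdh1. The tested endothelial probe, of Pecam1, stood at −0.27 in siControl (adjusted p = 0.46, limma). The log2 of the summed signal of the immune list was 2.57 to 2.99 at day 0 and 1.96 to 2.73 at day 2, and that of the epithelial list was 2.19 to 3.15 and −0.39 to 1.63. Its 2 tested probes went opposite ways in siControl, Krt14 falling by 2.64 and Cdh1 rising by 2.65, and in siBach1 they stood at −1.45 and 1.53. Both tested probes of the immune marker Cd68 fell in siControl, by 1.73 and 1.15, and both of Cd3e stood at 0.39 and 0.70 (adjusted p = 0.17 and 0.24, limma). The adipocyte marker Plin1 rose by 1.27 and stood at 0.96 in siBach1 (adjusted p = 0.054). Fabp4 of the same list stood at −0.71 in siControl (adjusted p = 0.52) and −1.75 in siBach1 (adjusted p = 0.11). The osteoblast marker Bglap rose by 0.89 in siControl and by 2.58 in siBach1. Sp7 and Alpl of that list stood at 0.36 and 0.33 in siControl (adjusted p = 0.29 and 0.58). The log2 of the summed signal lay between −2.56 and −1.05 for adipocyte, −0.19 and 0.97 for osteoblast and −3.29 and −2.58 for endothelial markers. Their part in the nucleoporin values was not tested.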

How the data were processed

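Total RNA of 12 C2C12 samples (4 conditions, 3 replicates) was labelled with Cyanine 3 and hybridised to one-colour Agilent mouse arrays. The authors deposited the scanner intensity of each spot, already background-subtracted by Feature Extraction (the file headers give version 10.7.3.1), and a table of log2 values that the authors made with GeneSpring by scaling to the 75th percentile. Here control spots and 76 to 110 outlier spots per array were dropped, repeat spots were averaged, and log2 of the processed signal minus the array's 75th percentile was used. No spot was saturated. The deposited log2 values are also centred on each probe's median, and differed by at most 0.0045 from the values used here after the same centring. A probe was tested if well above background on all 3 arrays of a condition (29664 of 56605). One limma fit (limma 3.58.1, R 4.3.3) of the 4 conditions without a block was used, with Benjamini-Hochberg adjustment over all tested probes, and a probe was called at an adjusted p under 0.05. Tables and figures used Python 3.11.15, pandas 2.3.3, numpy 2.4.6 and matplotlib 3.10.9. The number of arrays limits the precision.

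Members and lists were chosen with earlier results of these data known. Values on every array were given by a rule for Nup93, Nup210, up to 5 called member probes with the largest rise and 5 with the largest fall in siControl whose days did not overlap, and every member probe called for silencing or for the difference between days. Of the transport, partner, lamina and cell cycle lists the 2 highest and 2 lowest changes in siControl were named. Muscle genes and markers of other cell types fell outside the rule and were chosen after their values were seen. Other probes and genes are given to describe their place or list. Replicate numbers come from the labels. In all 18 same-numbered pairs deviations correlated (r from 0.142 to 0.595, against −0.443 to 0.265 for different numbers). Each replicate number also had its own combination of slide and array row. A pairing of samples and an effect of array position therefore cannot be told apart. The main fit left the replicate number out, so its SEs, adjusted p-values and calls are unpaired. With the replicate number as a block, 52 member probes were called lower over differentiation in siControl (33.0% of all probes) and 47 in siBach1 (36.5% of all). For silencing, 13 were then called at day 0 and 9 at day 2. Replicates 1 and 2 were on one slide and 3 on another. Each condition had its own array column on both slides, so position and condition cannot be told apart. The array gave a RefSeq accession for 53 member probes, of which 50 matched the reference table, each under the same symbol. Alternatives were normexp, quantile normalization, the deposited values, other filters, replicate or slide blocks, only the arrays compared, the methods' t-test, a fold limit of 2, 1 probe per gene, each array left out and, chosen after seeing the data, each slide alone.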

Additional observations from a re-analysis of the deposited data

Results flagged for a closer look

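For 4 probes the silencing effect differed between day 2 and day 0, tested as an interaction term (limma). The differences in log2 signal were 1.56 for Nup210 A_55_P2092661, 0.97 for Ndc1 A_52_P551154, 0.89 for Nupl1 A_52_P594532 and −0.64 for Nup88 A_66_P133697. Within the first slide they were 1.48, 0.94, 0.84 and −0.65, and within the second 1.73, 1.02, 0.98 and −0.62. The call of Nup88 was lost in 10 of 12 fits that left out 1 array (adjusted p up to 0.089, limma), and that of Nupl1 in 1 (0.052). The other probe of Ndc1, both others of Nupl1 and the other of Nup88 were not called for this difference.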

How the results depend on the processing

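The 25 single-probe results kept their direction under all 512 alternatives run, and their side of the threshold in 457. Blocks, other tests, filters and the fold limit leave a probe's fold change as it was. Direction could therefore change only under the other alternatives, and the probes were named for being called in the main fit. Without a filter the interaction calls of Ndc1, Nupl1, Nup210 and Nup88 (adjusted p = 0.067, 0.11, 0.067 and 0.19, limma), the day 2 call of Rae1 A_55_P2923727 (0.066) and the day 0 call of Nup43 (0.074) were lost. The filter changes how many probes are adjusted over, and the causes of the other changes were not tested. Of 59 probes, 50 were called over differentiation in siControl (49 lower). The number lower was 25 with a fold limit of 2 (of all probes 9.46%) and 27 with 1 probe per gene (of all genes 30.9%). With 1 array left out it was 44 to 48 (of all probes 25.8% to 28.3%). In siBach1 the number lower was 46. It was 18 with the fold limit (of all probes 9.59%) and 26 with 1 probe per gene (of all genes 33.9%). With 1 array left out it was 41 to 44 (of all probes 29.0% to 31.4%). For silencing at day 0, 10 were called, and 16 (27.1%, of all probes 28.2%) by the methods' t-test without adjustment. The number was 2 with the fold limit (of all probes 2.79%) and 6 with 1 probe per gene (of all genes 22.8%). It was 7 to 9 with 1 array left out (of all probes 10.9% to 13.8%). For silencing at day 2, 4 were called, 9 with the replicate block (of all probes 21.3%) and 9 with the slide as a block (of all probes 21.8%). By the methods' t-test without adjustment 9 were called (15.3%, of all probes 24.2%), and with the fold limit 1 (of all probes 2.17%). With 1 array left out 4 to 7 were called (of all probes 6.11% to 10.3%). For the difference between days, 4 were called, and 11 (18.6%, of all probes 22.3%) by the methods' t-test without adjustment. The number was 1 with the fold limit (of all probes 1.44%). It was 2 to 4 with 1 array left out (of all probes 1.61% to 3.81%). Without a filter 0 were called by limma (8 of 70 at an unadjusted p under 0.05), and 0.087% of all probes. On the first slide alone 0 were called (10 of 59 at that unadjusted p), and 0.378% of all probes. The replicate block removed no call in any of the 5 comparisons. The silencing difference of Nup93 at day 0 was −2.79 on the second slide alone, and −2.51 to −2.11 with 1 array left out, and at day 2 −1.38 to −1.24. Dim probes of Nup133 and Ranbp2 had wide errors although well above background, and Nup210l could not be measured at this signal.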
